A study of Drosophila melanogaster with 12 samples.

Results

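NS against WT compares wing imaginal discs that carry activated Notch together with a mutation of scribble against wild-type discs. Wing imaginal discs are the larval epithelial sacs of Drosophila melanogaster that form the adult wing and thorax. The comparison was chosen by the libraries' labels and uses 6 of the 12 libraries of the series, 3 of NS and 3 of WT. NS larvae carried y-, w-, abxUbx-Flp over w- on the X chromosome, Act>y+>Gal4 and UAS eGFP over UAS Nicd on the second chromosome and FRT82B tubGal80 over FRT82B scrib1 on the third, where Nicd is the free intracellular domain of Notch. WT larvae shared all of these elements other than scrib1 and, in WT replicate 1, UAS Nicd. The genotype text of WT replicates 2 and 3 does list UAS Nicd although their condition is given as wild type, and libraries were grouped by the condition. Gal4 in such larvae runs from the Actin promoter once Flp, made under abxUbx control, has removed the y+ cassette, and tubGal80 represses it until recombination at FRT82B removes that too. A disc is therefore a mosaic, and its RNA comes from altered and unaltered cells together. Of the other groups, N had Nicd without scrib1, and S was w- / w-; + with FRT82B scrib1 over Df(3R)BSC752, mutant throughout and without the Gal4 elements. All discs came from larvae 6 days after egg laying, with 60 discs pooled for each library of polyadenylated RNA. In bulk RNA of this kind fewer cells of a type and less RNA per cell cannot be told apart.

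Scribble is a scaffold of the basolateral membrane that, with Discs large and Lethal giant larvae, keeps epithelial cells polarised and restrains their growth. Discs that lose it are known for overgrowth with signalling through the stress kinase JNK, the growth regulator Yorkie and the Unpaired cytokines, which act through JAK/STAT. Notch is a receptor cleaved on contact with its ligands, and its intracellular domain switches on the Enhancer of split genes and, along the wing margin, wingless. Damaged or overgrown discs also release Ilp8, a relaxin-like peptide that holds back ecdysone, the steroid that ends larval life and drives disc eversion.

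NS replicates 1 to 3 held 38048822, 21024017 and 40860792 counts, and WT replicates 1 to 3 held 37721478, 38243080 and 39572136. Levels are CPM, counts relative to the scaled library size, and are listed in the order of replicates 1 to 3. The transcript of scrib stood at 394, 434 and 87.2 CPM in NS and 348, 448 and 369.8 CPM in WT (log2 change −0.35 ± 0.45, edgeR adjusted p = 0.5835), so it does not check the scrib1 label. The transcript of N stood at 1602, 1458 and 501 CPM in NS and 651.5, 885 and 707 CPM in WT, above every WT library in NS replicates 1 and 2 and below them in NS replicate 3. Its log2 change was 0.67 ± 0.40, edgeR adjusted p = 0.238, and 1.03 ± 0.28, edgeR adjusted p = 0.0231 without NS replicate 3. Jonah genes, which encode proteases of the larval gut and were looked at after their values were seen, summed over the 10 tested to 2.27, 2.71 and 2.29 CPM in NS and 3269, 6.33 and 6.77 CPM in WT. Of these, 5 were called lower in NS, and 0 without WT replicate 1 or without NS replicate 3. Fat body markers summed to 7580, 1337 and 1595 CPM in NS and 1134, 502 and 693 CPM in WT. The p-values rest on the spread among such pools.

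In edgeR's quasi-likelihood fit, with p-values adjusted by Benjamini-Hochberg, 1316 of 9444 genes (13.9%) were higher and 1010 (10.7%) lower in NS than in WT. Of these, 520 and 638 differed at least 2-fold, and the median change over all genes was 0.03 on the log2 scale. When libraries were scaled by their totals alone the split turned to 797 higher (8.44%) and 1175 lower (12.4%), with a median of −0.13. Without NS replicate 3, 1251 of 9671 genes (12.9%) were higher and 1183 (12.2%) lower. Of the genes called with all libraries, 1002 of the higher (76.1%) and 898 of the lower (88.9%) were called again in that fit. Higher genes numbered 661 without WT replicate 1 and 611 without WT replicate 2, and lower genes 655 and 662. All 3 NS libraries lay above all 3 WT libraries in 21.7% of genes and below them in 21.5%. With WT replicate 1 alone as WT, the library whose genotype text lacks UAS Nicd, 252 of 11413 genes (2.21%) were higher and 413 (3.62%) lower, its spread being taken as that of the other groups. In that fit the median log2 change was −1.78 for notum and hinge genes and −1.64 for leg, antenna and eye genes. It was −1.16 for ecdysone response genes and −0.57 for pouch genes. Hedgehog, EGF receptor and Wnt genes had medians of −0.54, −0.51 and −0.29, and JAK/STAT and ribosome biogenesis genes 0.20 and 0.76. Each of these lists kept the sign of its median with all libraries, and each had fewer calls than with all libraries. Calls of single genes given below are from the fit with all libraries unless stated. Many of them, though not all, were lost with WT replicate 1 alone as WT. Among those lost were the calls of Socs36E, Ptp61F, Mmp1, Pvf1 and ImpL2. Where a gene list described below had 0 edgeR calls in a direction with all libraries, it also had 0 in that direction at an unadjusted p below 0.05 and 0 by DESeq2, with a few exceptions. These were 1 lower JAK/STAT, 1 lower insulin and 1 higher Hox, Polycomb or Trithorax gene by either measure, 2 higher septate junction genes by either, 2 higher haemocyte markers (1 by DESeq2) and 1 lower neuronal or glial marker (0 by DESeq2).

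NS replicate 3 was low in long transcripts. Its median log2 difference from the WT mean was 0.92 in the shortest of 5 equal bins of exon length (55 to 1105 bases) and −1.23 in the longest (4001 to 71820 bases). The same medians were 0.09 and −0.10 in NS replicate 1 and 0.07 and −0.09 in NS replicate 2. In the shortest bin 375 genes were called higher and 79 lower with all libraries, against 243 and 120 without NS replicate 3. In the longest bin 74 were higher and 252 lower with all libraries, against 176 and 293 without it.

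**Figure D1:**
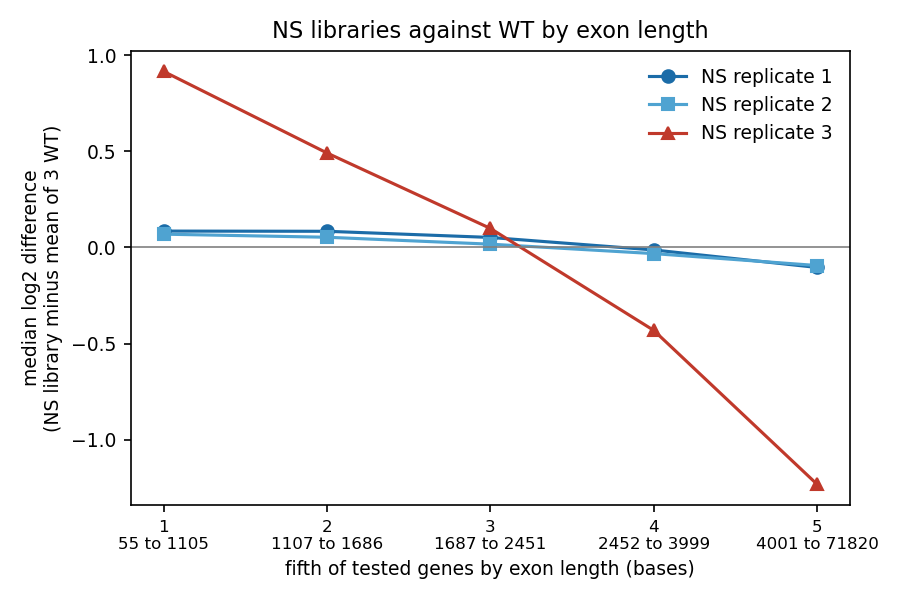
Median log2 difference of each NS library from the mean of the 3 WT libraries (vertical axis) in 5 equal bins of the tested genes by exon length in bases (horizontal axis). NS replicates 1 and 2 stay between −0.10 and 0.09, while NS replicate 3 runs from 0.92 in the shortest bin to −1.23 in the longest.

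The changes at the extremes exceeded 100-fold in both directions. Genes were named here if they reached 5 CPM in either group, did not overlap between groups and were called with and without NS replicate 3, so their lack of overlap is no finding. Ir87a, an ionotropic receptor gene (arm 3R, positions 13420279 to 13423140, plus strand, BDGP6), stood at 205, 199 and 171.5 CPM in NS and 0.1796, 0.179 and 0.209 CPM in WT (log2 change 9.96 ± 0.35, edgeR adjusted p = 1.95e-07). Its neighbour yellow-e, of the family of secreted Yellow proteins (arm 3R, positions 13409543 to 13415286, minus strand), stood at 947, 929 and 934 CPM in NS and 12.03, 13.02 and 13.45 CPM in WT (log2 change 6.19 ± 0.25, edgeR adjusted p = 3.89e-07). Both were nearly uniform within each group, with NS means 1014-fold and 72.97-fold the WT means. Ilp8 (arm 3L, positions 17029812 to 17032080, minus strand) ranged more widely, at 946, 531 and 1593 CPM in NS and 6.06, 2.49 and 2.16 CPM in WT. Tdc2, which encodes the tyrosine decarboxylase of octopamine neurons, stood at 36.4, 35.3 and 32 CPM in NS and 0.128, 0.0769 and 0.1396 CPM in WT. CG32437 (arm 3L, positions 21357683 to 21359867, plus strand) stood at 18.1, 11.8 and 11.4 CPM in NS, against 6 reads in all WT libraries together. Its neighbour CG12971 (positions 21355100 to 21356495, minus strand) stood at 6.55, 4.88 and 6.94 CPM in NS, against 7 reads in WT. The other genes among the 12 with the largest rise were CG13230, CG42808, CG13215, Cpr64Ac, CG17108 and CG13032, which ranged from 2.495 to 59.2 CPM in NS and stayed at or below 0.721 CPM in WT.

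Of the genes that fell, ImpE2, an ecdysone-inducible gene of disc eversion (arm 3L, positions 3510974 to 3512681, minus strand), stood at 0.608, 0.837 and 1.12 CPM in NS and 2786, 2936 and 2778 CPM in WT (log2 change −11.69 ± 0.64, edgeR adjusted p = 2.60e-06), so that a transcript among the abundant ones in WT was 3316-fold lower. Spn100A, a serpin gene, stood at 0.07925, 0.345 and 0.172 CPM in NS and 113, 141 and 111 CPM in WT. Spn43Aa, another serpin gene, stood at 0.608, 0.2955 and 1.09 CPM in NS and 233, 173 and 199.7 CPM in WT. Serpins are inhibitors of serine proteases, and both were nearly absent from every NS library. Blimp-1, a repressor gene that ecdysone induces, gave 7 reads in all NS libraries together, against 25.8, 54.5 and 71.9 CPM in WT. B-H1, the BarH1 homeobox gene, gave 2 reads in NS, against 4.465, 4.54 and 7.89 CPM in WT. The nuclear receptor genes Hr4 and Eip78C belonged here too. St2, a sulfotransferase gene, CG1273, ana, which encodes a secreted regulator of neuroblast quiescence, Gr64a, a sugar receptor gene, and CG13023 complete the 12. These 5 stayed at or below 0.837 CPM in NS and ranged from 7.05 to 74.8 CPM in WT.

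**Figure D2:**
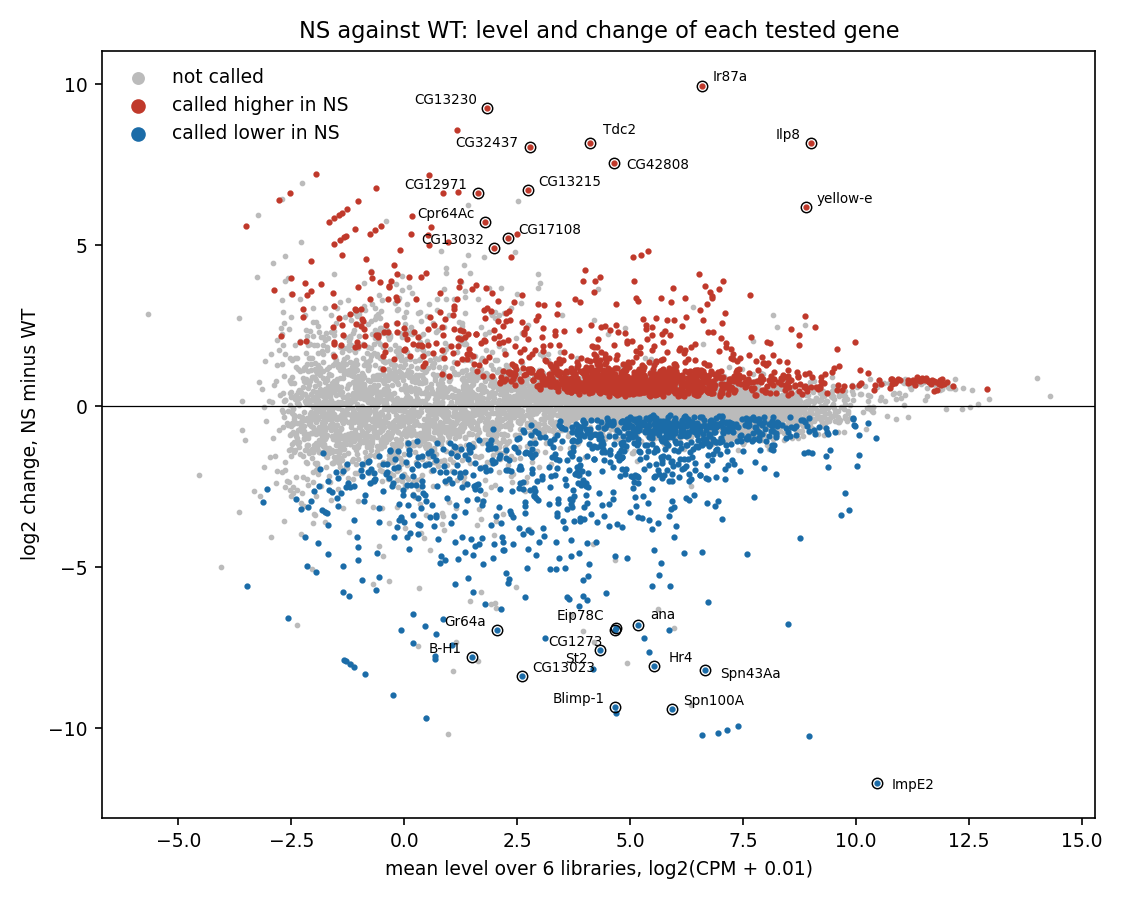
Log2 change of NS over WT (vertical axis) against the mean level over the 6 libraries as log2(CPM + 0.01) (horizontal axis) for the 9444 tested genes, coloured by call, with the 12 highest and 12 lowest genes of the naming rule circled. Ir87a, Ilp8 and yellow-e combine high levels with large rises and ImpE2 lies alone at the lower right, while the uncircled points at the bottom include the Jonah proteases, which WT replicate 1 holds.

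All 3 Unpaired cytokine genes and 2 inhibitors of their pathway rose. upd1 stood at 142, 109 and 93.3 CPM in NS and 8.72, 9.201 and 9.285 CPM in WT (log2 change 3.66 ± 0.28, edgeR adjusted p = 1.94e-05). upd2 stood at 45.2, 36.7 and 31.7 CPM in NS and 3.39, 2.64 and 1.02 CPM in WT (log2 change 4.01 ± 0.68, edgeR adjusted p = 0.00212). upd3 stood at 80.7, 57.97 and 53.4 CPM in NS and 2.797, 3.18 and 1.745 CPM in WT (log2 change 4.64 ± 0.51, edgeR adjusted p = 0.000151). In each, every NS library lay above every WT library and NS replicate 1 was highest. Socs36E, which JAK/STAT signalling induces and which inhibits it, stood at 306, 245 and 148 CPM in NS and 118, 110.2 and 84.9 CPM in WT (log2 change 1.16 ± 0.26, edgeR adjusted p = 0.0103). The gene of the phosphatase Ptp61F, another inhibitor, stood at 310.5, 294 and 238 CPM in NS and 155, 175 and 162 CPM in WT (log2 change 0.78 ± 0.13, edgeR adjusted p = 0.00194). With chinmo, a BTB factor gene described below, these made 6 higher and 0 lower of 13 JAK/STAT genes, with a median log2 change of 0.14. That median was 0.36 without NS replicate 3, 0.37 with library offsets corrected for exon length and −0.01 with library totals. The kinase gene hop was not called (log2 change −0.67 ± 0.31, edgeR adjusted p = 0.138). Without NS replicate 2 or 3, 1 member was called lower.

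Several target genes of JNK rose, and the 2 Eiger receptor genes moved apart. Ets21C, a stress-induced transcription factor gene, stood at 159, 122 and 127 CPM in NS and 18.96, 12.7 and 7.75 CPM in WT (log2 change 3.37 ± 0.44, edgeR adjusted p = 0.000472). Mmp1, which encodes a secreted matrix protease, stood at 581.5, 456 and 328 CPM in NS and 215.5, 175 and 128 CPM in WT (log2 change 1.40 ± 0.33, edgeR adjusted p = 0.0116). The cell death gene rpr stood at 64.9, 87.2 and 108 CPM in NS and 29.3, 30.2 and 20.4 CPM in WT (log2 change 1.70 ± 0.25, edgeR adjusted p = 0.000863). All 3 were above WT in every NS library. The gene of the adaptor Traf4 was 2.69-fold, that of the wound-closure protein scaf 2.52-fold and that of the filamin cher 3.96-fold the WT mean. grnd, the gene of the Grindelwald receptor for Eiger, the fly tumour necrosis factor, stood at 137, 147 and 119.6 CPM in NS and 89.2, 83.6 and 88.45 CPM in WT (log2 change 0.63 ± 0.12, edgeR adjusted p = 0.00505). wgn, the gene of the Wengen receptor for the same factor, stood at 29.1, 33.3 and 19.5 CPM in NS and 70.02, 75.5 and 58.2 CPM in WT (log2 change −1.31 ± 0.18, edgeR adjusted p = 0.000589). Of 22 JNK genes 8 were called higher and 2 lower, Ilp8 among the higher ones and Traf6 the other lower one (edgeR adjusted p = 0.0568 to 0.114 without NS replicate 2 or any one WT library). Among all genes 13.9% were higher and 10.7% lower, so the lower count was near its share. The phosphatase gene puc, a feedback target, had a log2 change of 0.51 ± 0.25, edgeR adjusted p = 0.158, and 0.72 ± 0.22, edgeR adjusted p = 0.0379 without NS replicate 3. Exons of Ets21C and Traf4 overlap a gene of the other strand for 28.3% and 26.8% of their length, and 1 member was lower without NS replicate 2 or any one WT library.

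**Figure D3:**
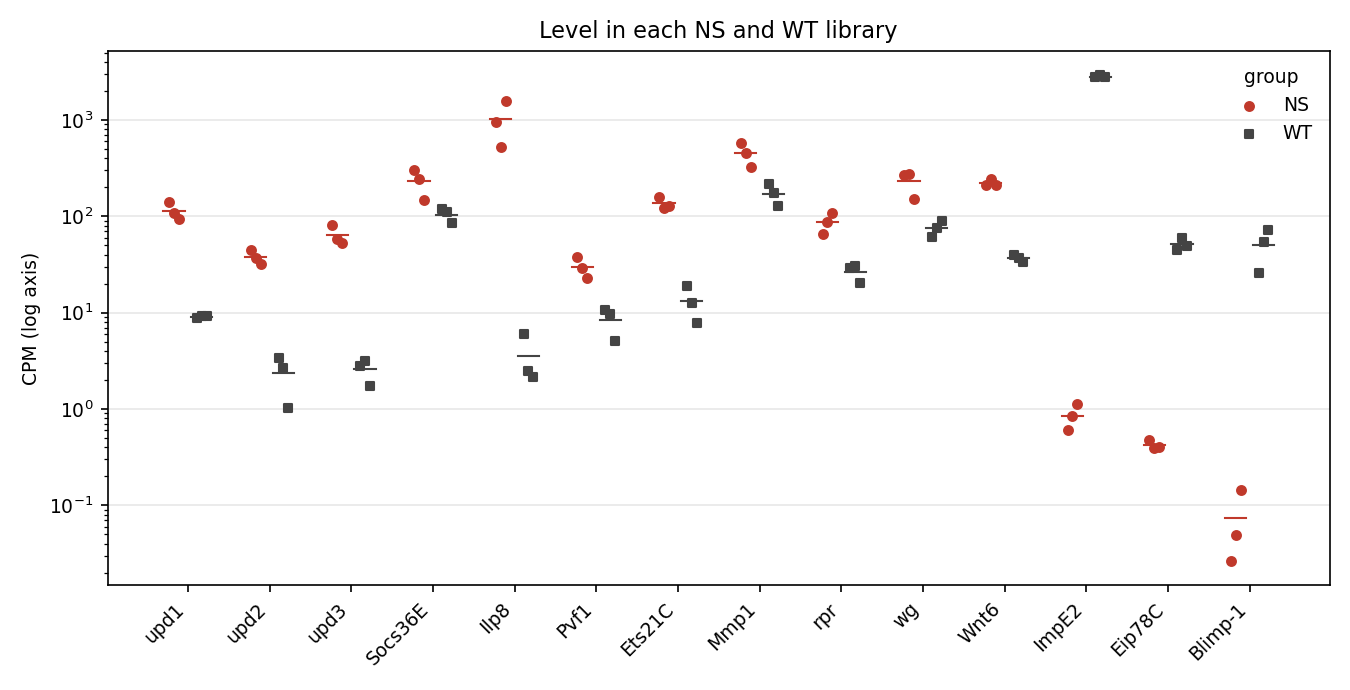
CPM on a log axis for 14 genes in each library of NS (circles, left of each pair) and WT (squares, right), with group means as bars. The cytokine, stress and Wnt ligand genes lie higher in all 3 NS libraries, whereas ImpE2, Eip78C and Blimp-1 lie near or below 1 CPM in NS and above 25 CPM in WT.

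Genes of a secreted growth factor, of a secreted insulin antagonist and of a translation inhibitor on the insulin list rose. Pvf1, which encodes a ligand of the PDGF and VEGF type, stood at 38.2, 28.96 and 23.1 CPM in NS and 10.6, 9.66 and 5.05 CPM in WT (log2 change 1.84 ± 0.34, edgeR adjusted p = 0.00369). ImpL2, which encodes a secreted binding protein that dampens insulin signalling, stood at 546, 425 and 315 CPM in NS and 179, 133 and 114 CPM in WT (log2 change 1.59 ± 0.27, edgeR adjusted p = 0.00241). Thor, the gene of the translation inhibitor 4E-BP, stood at 74.8, 73.1 and 79.1 CPM in NS and 22.96, 8.59 and 9.96 CPM in WT (log2 change 2.45 ± 0.40, edgeR adjusted p = 0.00187). Each was above WT in every NS library, and with Ilp8 the insulin list had 3 higher and 0 lower of 14, or 5 higher without NS replicate 3. Exons of ImpL2 overlap another gene on the same strand over 61.9% of their bases.

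Several FGF and EGF receptor signalling genes fell, 4 of 10 and 6 of 22 in the lists that hold them. The FGF ligand gene pyr and the receptor genes htl and btl were 2.12-fold, 2.18-fold and 4.48-fold lower, and with stumps, the gene of their adaptor (edgeR adjusted p = 0.0589 without WT replicate 2 and 0.342 with the correction for exon length), and Pvf1 they made 1 higher and 4 lower of 10 genes of the PDGF, VEGF and FGF types (2 higher without NS replicate 3). aos, which encodes a secreted inhibitor of the EGF receptor, stood at 14.9, 17.3 and 11.4 CPM in NS and 39.6, 56.3 and 23.1 CPM in WT (log2 change −1.45 ± 0.28, edgeR adjusted p = 0.004415). kek1, the gene of another feedback inhibitor, stood at 44.35, 45.8 and 14.7 CPM in NS and 116, 157 and 185 CPM in WT (log2 change −2.13 ± 0.42, edgeR adjusted p = 0.00511). edl, which encodes a nuclear regulator of the pathway, stood at 12.4, 12.95 and 11.6 CPM in NS and 38.4, 43.7 and 20.97 CPM in WT (log2 change −1.48 ± 0.25, edgeR adjusted p = 0.00209). These 3 are induced by the pathway, and all lay below WT in every NS library. The ligand gene spi, in contrast, stood at 293.5, 360.4 and 244 CPM in NS and 159.7, 174 and 203 CPM in WT (log2 change 0.74 ± 0.17, edgeR adjusted p = 0.01004), with 0.0523 without WT replicate 1. Of 22 EGF receptor genes 1 was called higher and 6 lower, or 3 lower without WT replicate 2. For all genes the shares with all libraries were 13.9% higher and 10.7% lower.

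Targets of Notch moved in both directions. E(spl)mgamma-HLH, a repressor gene of the Enhancer of split complex, stood at 29.2, 39.1 and 35.2 CPM in NS and 7.185, 9.996 and 1.65 CPM in WT (log2 change 2.46 ± 0.52, edgeR adjusted p = 0.00696). E(spl)m8-HLH, another repressor gene there, stood at 45.4, 47.1 and 65.6 CPM in NS and 15.5, 17.6 and 5.655 CPM in WT (log2 change 2.03 ± 0.36, edgeR adjusted p = 0.00294). E(spl)m4-BFM, a Bearded-family gene of the complex, stood at 15.8, 18.7 and 26.9 CPM in NS and 8.57, 7.87 and 7.19 CPM in WT (log2 change 1.38 ± 0.23, edgeR adjusted p = 0.00176). All NS libraries lay above all WT libraries in these 3, and WT replicate 3 was the lowest WT library in each. E(spl)mdelta-HLH, from the same complex, went down, at 13.1, 14.1 and 11.8 CPM in NS and 32.5, 38.2 and 15.99 CPM in WT (log2 change −1.16 ± 0.27, edgeR adjusted p = 0.0119). Of 18 Notch targets 6 were called higher and 3 lower (median 0.34), with wg, vg and dpn the other higher ones (edgeR adjusted p = 0.0565 without WT replicate 3 for dpn, whose exons overlap a gene of the other strand for 59.3% of their length). E(spl)m6-BFM (edgeR adjusted p = 0.0767 to 0.122 without NS replicate 1 or 2 or WT replicate 1 or 2) and Tom (edgeR adjusted p = 0.0501 to 0.0781 without NS replicate 1 or WT replicate 1 or 2) were the other lower ones. Lower calls numbered 0 without WT replicate 2 and 1 without NS replicate 1 or WT replicate 1, and E(spl)mdelta-HLH was among those lost without WT replicate 2 (edgeR adjusted p = 0.0548). Without WT replicate 3, 4 were higher and 4 lower and the median turned to −0.07, against 0.53 and 0.65 without WT replicates 1 and 2. With all libraries 13.9% of all genes were higher and 10.7% lower.

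Calls among genes of the Notch pathway itself depended on NS replicate 3. With all libraries 0 of 19 were higher and 3 lower, among them fng, which encodes the glycosyltransferase that tunes ligand choice, at 216, 237 and 165 CPM in NS and 355, 354 and 349 CPM in WT (log2 change −0.78 ± 0.18, edgeR adjusted p = 0.0101). Without NS replicate 3, 4 were higher, the receptor gene N, the ligand genes Dl and Ser, and neur, the gene of a ubiquitin ligase for the ligands, whose exons overlap a gene of the other strand for 38.8% of their length. Dl stood at 270.1, 267 and 67.7 CPM in NS and 117, 144 and 150.3 CPM in WT. Ser stood at 676, 726 and 194.5 CPM in NS and 416, 473 and 374 CPM in WT. NS replicate 3 lay below all WT libraries in both, and the other two NS libraries lay above them. The log2 change of Dl was 0.56 ± 0.41, edgeR adjusted p = 0.3275 with all libraries and 0.97 ± 0.17, edgeR adjusted p = 0.00335 without NS replicate 3. That of Ser was 0.34 ± 0.37, edgeR adjusted p = 0.513 and 0.73 ± 0.11, edgeR adjusted p = 0.00112. The 3 lower calls became 1 without any one WT library.

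3 Wnt ligand genes rose and several Wnt receptor genes fell. wg, the gene of the margin ligand Wingless, stood at 272, 275 and 151 CPM in NS and 61.35, 75.8 and 89.9 CPM in WT (log2 change 1.62 ± 0.24, edgeR adjusted p = 0.000995). Wnt6 stood at 213, 246 and 212 CPM in NS and 39.9, 36.9 and 33.8 CPM in WT (log2 change 2.60 ± 0.24, edgeR adjusted p = 5.96e-05). Wnt10 stood at 8.45, 7.88 and 7.57 CPM in NS and 1.72, 1.999 and 1.98 CPM in WT (log2 change 2.07 ± 0.28, edgeR adjusted p = 0.000616). Every NS library was above every WT library in these 3 ligand genes, while Wnt2 was the exception. Wnt2 stood at 2.325, 2.315 and 1.29 CPM in NS and 47.1, 54.3 and 44.9 CPM in WT (log2 change −4.63 ± 0.77, edgeR adjusted p = 0.002005). Among receptors, drl, the Derailed gene, stood at 76.03, 93.8 and 38.4 CPM in NS and 265.5, 308.5 and 257 CPM in WT (log2 change −2.0 ± 0.28, edgeR adjusted p = 0.000649). The coreceptor gene arr, an LRP homologue, stood at 135, 145 and 33.15 CPM in NS and 363, 443 and 364 CPM in WT (log2 change −1.90 ± 0.44, edgeR adjusted p = 0.01145). Both receptor genes lay below WT in every NS library. The Frizzled genes fz (edgeR adjusted p = 0.0548 to 0.134 without NS replicate 3 or any one WT library) and fz2 (edgeR adjusted p = 0.0549 to 0.0779 without WT replicate 1 or 2) were 1.64-fold and 2.73-fold lower. por, which encodes the enzyme that acylates Wnts, and the kinase gene nmo were 1.58-fold and 2.85-fold lower, as was wls, whose product carries Wnts to the surface (edgeR adjusted p = 0.0793 to 0.128 without any one WT library). Of 26 Wnt genes 3 were called higher and 8 lower (median −0.37), where 13.9% and 10.7% of all genes were. The higher Wnt count was no larger than its share. Without NS replicate 3, 5 were higher and the median was −0.07, and without WT replicate 1 or 2, 5 were lower. The median was −0.65 without NS replicate 2.

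Of Hedgehog pathway genes 5 of 14 fell, while the lower calls among Dpp pathway genes were near the share of all genes. inv, a selector gene of the posterior compartment, which makes Hedgehog, stood at 61.9, 67.5 and 47.9 CPM in NS and 121, 134 and 107 CPM in WT (log2 change −1.03 ± 0.16, edgeR adjusted p = 0.00155). en, its neighbour and paralogue, stood at 19.4, 29.8 and 14.8 CPM in NS and 35.8, 46.1 and 57.5 CPM in WT (log2 change −1.13 ± 0.24, edgeR adjusted p = 0.007765). ihog, a Hedgehog coreceptor gene, stood at 196, 209.7 and 119.7 CPM in NS and 381, 442 and 384 CPM in WT (log2 change −1.20 ± 0.23, edgeR adjusted p = 0.00397). NS libraries lay below WT libraries in these 3, and the call of inv was lost with the correction for exon length (log2 change −0.48, edgeR adjusted p = 0.134). Of 14 Hedgehog genes 0 were called higher and 5 lower (median −0.67), with hh (edgeR adjusted p = 0.0541 to 0.0833 without NS replicate 1 or 3 or WT replicate 2 or 3) and boi (edgeR adjusted p = 0.0572 to 0.148 without NS replicate 1 or any one WT library) the others and 3 lower without WT replicate 2 or 3. wit, a BMP type II receptor gene, stood at 36.75, 35.9 and 17.15 CPM in NS and 103, 114.5 and 92.5 CPM in WT (log2 change −1.79 ± 0.28, edgeR adjusted p = 0.00134). Of 22 Dpp genes 0 were called higher and 3 lower (median −0.53), or 1 without any one WT library, 5 without NS replicate 3 and 6 without NS replicate 2, and 1 was higher without NS replicate 3, where the median was −0.17. Over all genes 10.7% were lower.

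Region genes of the notum, which forms the thorax, and of the hinge, which forms the wing base, fell in 12 of 17 cases, and 0 rose. pnr, a GATA factor gene of the dorsal thorax, stood at 0.925, 0.739 and 0.6596 CPM in NS and 41.7, 38.2 and 49.8 CPM in WT (log2 change −5.79 ± 0.58, edgeR adjusted p = 8.80e-05). tup, a LIM homeobox gene, stood at 5.05, 4.97 and 3.298 CPM in NS and 37.95, 39.4 and 34.4 CPM in WT (log2 change −3.07 ± 0.22, edgeR adjusted p = 1.34e-05). eyg, a Pax gene, stood at 3.725, 4.68 and 2.87 CPM in NS and 34.4, 37.1 and 46.45 CPM in WT (log2 change −3.39 ± 0.48, edgeR adjusted p = 0.0007735). All 3 were below WT in every NS library. Its paralogue toe stood at 3.43, 5.47 and 3.01 CPM in NS and 53.9, 55.3 and 49.3 CPM in WT. It lay below WT in every NS library as well. The Iroquois complex genes ara, caup and mirr were 3.84-fold, 3.902-fold and 4.71-fold lower, and the T-box genes Doc1, Doc2 and Doc3 5.98-fold, 11.8-fold and 2.41-fold lower. Of 17 such genes 0 were called higher and 12 lower, the same counts without NS replicate 3, with medians of −1.96 and −1.63.

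Of limb and eye patterning genes that WT wing discs also expressed, 13 of 20 fell. al, a homeobox gene, stood at 9.25, 12.1 and 8.52 CPM in NS and 68.6, 69.8 and 66.9 CPM in WT (log2 change −2.78 ± 0.26, edgeR adjusted p = 5.96e-05). C15, another, stood at 0.343, 0.0985 and 0.172 CPM in NS and 7.52, 8.38 and 13.01 CPM in WT (log2 change −5.48 ± 0.69, edgeR adjusted p = 0.0003555). ss, a selector gene of the antenna, stood at 2.48, 2.91 and 0.516 CPM in NS and 32.3, 34.7 and 40.45 CPM in WT (log2 change −4.21 ± 0.61, edgeR adjusted p = 0.000873). Every NS library lay below every WT library in these. bab2, a BTB factor gene, stood at 7.502, 8.03 and 2.47 CPM in NS and 59.8, 63.9 and 50.6 CPM in WT. dac, a regulator gene of the middle leg, stood at 7.265, 5.76 and 2.925 CPM in NS and 36.85, 35.55 and 30.6 CPM in WT. Of 20 leg, antenna and eye genes 0 were called higher and 13 lower, the same counts without NS replicate 3, with medians of −1.90 and −1.68.

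The pouch, the field of the future wing blade, had calls in both directions. nub, its POU factor marker, stood at 139, 178 and 81.04 CPM in NS and 272, 293 and 275 CPM in WT (log2 change −1.08 ± 0.23, edgeR adjusted p = 0.00766). bs, which encodes the fly's serum response factor in intervein cells, stood at 25.1, 28.3 and 23.8 CPM in NS and 61.6, 76.9 and 91.04 CPM in WT (log2 change −1.57 ± 0.16, edgeR adjusted p = 9.03e-05). vg, the selector gene of the wing, stood at 397.5, 441 and 194 CPM in NS and 192.5, 227 and 182 CPM in WT (log2 change 0.78 ± 0.25, edgeR adjusted p = 0.0429). nub and bs were below WT in every NS library and vg was above WT in NS replicates 1 and 2, with NS replicate 3 inside the WT range. Without NS replicate 3 the log2 change of vg was 1.06 ± 0.10, edgeR adjusted p = 0.000122, and with NS replicate 3 kept its call was lost without any other single library (0.0809 to 0.125). Of 19 pouch genes 2 were called higher and 7 lower (median −0.79), or 4 higher without NS replicate 3, with a median of −0.35, and 4 lower without NS replicate 1. Among all genes 13.9% were higher and 10.7% lower with all libraries.

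Sensory organ genes gave mostly lower calls. sc, a proneural gene of the achaete-scute complex, stood at 9.404, 9.75 and 11.8 CPM in NS and 21.4, 21.15 and 33.8 CPM in WT (log2 change −1.30 ± 0.23, edgeR adjusted p = 0.00254). emc, which encodes an inhibitor of proneural factors, stood at 727, 757 and 549 CPM in NS and 324, 353 and 412 CPM in WT (log2 change 0.90 ± 0.16, edgeR adjusted p = 0.002902). The inhibitor lay above WT and the proneural gene below it in every NS library. Of 16 genes 1 was called higher and 4 lower, with 2 lower without WT replicate 2 and 2 higher without NS replicate 3. The shares over all genes with all libraries were 13.9% higher and 10.7% lower.

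**Figure D4:**
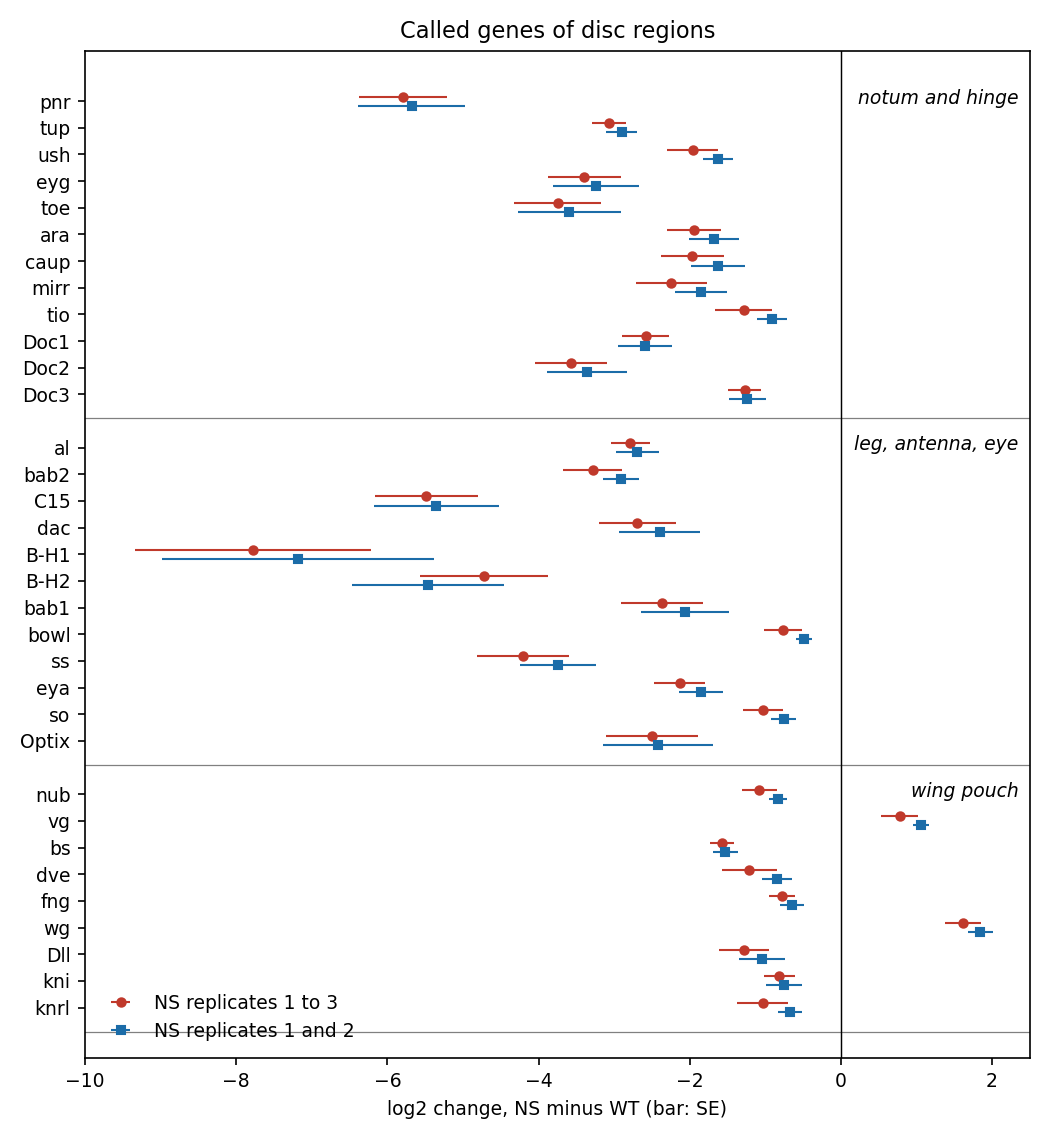
Log2 change of NS over WT with its SE (horizontal axis) for called genes of 3 disc regions, with NS replicates 1 to 3 (circles) and with NS replicates 1 and 2 (squares). All notum and hinge and all leg, antenna and eye genes shown lie left of 0 in both fits, and vg and wg alone lie right of it.

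Many ecdysone response genes, though not all, were lower in NS. ImpE1 stood at 72.9, 55.1 and 32.8 CPM in NS and 333, 421 and 373 CPM in WT (log2 change −2.81 ± 0.32, edgeR adjusted p = 0.000205). Eip78C, a nuclear receptor gene, stood at 0.4755, 0.394 and 0.4015 CPM in NS and 44.7, 59.5 and 49.4 CPM in WT (log2 change −6.90 ± 0.53, edgeR adjusted p = 1.90e-05). Hr4, another, stood at 0.4755, 0.2955 and 0.229 CPM in NS and 90.7, 104 and 80.9 CPM in WT (log2 change −8.06 ± 0.95, edgeR adjusted p = 0.000252). The NS and WT libraries did not overlap in any of these. Cyp18a1, which encodes the enzyme that breaks ecdysone down, stood at 16.1, 14.4 and 8.63 CPM in NS and 1.44, 2.025 and 2.63 CPM in WT (log2 change 2.68 ± 0.42, edgeR adjusted p = 0.00142). Of 23 ecdysone response genes 2 were called higher and 11 lower (median −1.16), where 13.9% and 10.7% of all genes were. Lower calls numbered 9 without NS replicate 2, 10 without WT replicate 1 and 8 without WT replicate 2. The other higher gene was 1 of 11 early regulators listed. Its call was lost without NS replicate 1 or 2 or WT replicate 1 or 3, which left 1 higher.

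The small heat shock genes Hsp23 and Hsp27, known as ecdysone-inducible in discs, fell with them. Hsp23 stood at 150.1, 228.5 and 155 CPM in NS and 1898, 1750 and 1338 CPM in WT (log2 change −3.22 ± 0.30, edgeR adjusted p = 6.21e-05). Hsp27 stood at 168.5, 327.5 and 205 CPM in NS and 1498, 1486 and 1505 CPM in WT (log2 change −2.68 ± 0.25, edgeR adjusted p = 6.04e-05). The constitutive chaperone gene Hsc70-4 went up, at 8758, 9278 and 8789 CPM in NS and 6158, 6913 and 5532 CPM in WT (log2 change 0.53 ± 0.11, edgeR adjusted p = 0.00702). NS and WT lay apart in all 3. Of 16 heat shock and unfolded protein genes 2 were called higher and 4 lower, with 1 higher without NS replicate 2 or any one WT library, and 0 of 4 Hsp70 genes were called. Over all genes 13.9% were higher and 10.7% lower, so the higher count was near its share.

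Genes of the early larval state rose and those of the late state fell. chinmo, a repressor gene of the early state, stood at 469, 536 and 91.9 CPM in NS and 22.2, 49.2 and 29.4 CPM in WT (log2 change 3.44 ± 0.57, edgeR adjusted p = 0.00188). Imp, an RNA-binding protein gene of that state, stood at 482, 521 and 132 CPM in NS and 136, 173 and 138 CPM in WT (log2 change 1.35 ± 0.39, edgeR adjusted p = 0.0314). br, the Broad gene of the late state, stood at 596, 632 and 133 CPM in NS and 1362, 1863 and 1663 CPM in WT (log2 change −1.84 ± 0.47, edgeR adjusted p = 0.0175). NS replicate 3 was the lowest NS library in all 3, and for Imp it lay below every WT library. Syp, the late counterpart of Imp, stood at 420.5, 459.9 and 104 CPM in NS and 835, 978 and 1046 CPM in WT (log2 change −1.54 ± 0.46, edgeR adjusted p = 0.03295). Without NS replicate 3 the log2 change was 1.75 ± 0.15, edgeR adjusted p = 5.41e-05 for Imp, and 3.90, −1.41 and −1.12 for chinmo, br and Syp. Of 6 such genes 3 were called higher and 2 lower. The call of Imp was lost without NS replicate 1 or 2 or any one WT library (edgeR adjusted p = 0.073 to 0.102), that of Syp without any one WT library (0.0644 to 0.088) and that of br without WT replicate 2 (0.0596). Higher calls were 1 in the 5 fits that lost Imp, and lower calls 0 without WT replicate 2 and 1 without WT replicate 1 or 3.

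Cuticle protein genes had more lower than higher calls. Cpr64Aa stood at 2.615, 2.17 and 0.688 CPM in NS and 98.9, 84.5 and 79.01 CPM in WT (log2 change −5.59 ± 0.50, edgeR adjusted p = 4.93e-05). Cpr49Ac stood at 35.6, 10.9 and 16.6 CPM in NS and 237, 219 and 264 CPM in WT (log2 change −3.51 ± 0.50, edgeR adjusted p = 0.000791). Cpr12A stood at 14.2, 10.2 and 10.4 CPM in NS and 55.5, 72.15 and 53.8 CPM in WT. All 3 were below WT in every NS library, whereas Cpr64Ac, one of the genes with the largest rise, stood at 8.43, 9.26 and 2.495 CPM in NS and 0.07698, 0.205 and 0.0931 CPM in WT. Of 125 cuticle genes found, 47 passed the filter on low counts, which genes present in 1 group alone can pass. How far this shaped the balance of calls was not tested. Of the 47, 5 were called higher and 12 lower (median −0.46), where 13.9% and 10.7% of all genes were. Without NS replicate 3, 16 of 50 were lower and the median was −2.01. The median was −0.93 without WT replicate 3.

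Polarity genes gave no call with all libraries, 0 of 17 by edgeR, with 0 at an unadjusted p below 0.05 and 0 by DESeq2. l(2)gl, the Lethal giant larvae gene, stood at 582, 584 and 162 CPM in NS and 328, 344 and 361 CPM in WT. sdt, of the apical Crumbs complex, stood at 292, 341 and 105 CPM in NS and 148.5, 181 and 127 CPM in WT. In both, NS replicates 1 and 2 lay above and NS replicate 3 below every WT library, and they were the 2 called higher without NS replicate 3. dlg1, the Discs large gene, stood at 203, 203 and 61.5 CPM in NS and 195.5, 223 and 199 CPM in WT and was not called in either fit (edgeR adjusted p = 0.409, and 0.898 without NS replicate 3). Of 21 septate junction genes 0 were called higher and 3 lower, where 10.7% of all genes were lower. Among the 3 was nrv1, which encodes a subunit of the sodium pump, at 59.4, 55.2 and 43.65 CPM in NS and 107, 102 and 84.8 CPM in WT (log2 change −0.89 ± 0.17, edgeR adjusted p = 0.00455). Another was Tsp2A, lost without any one NS library or WT replicate 1 or 2 (edgeR adjusted p = 0.0766 to 0.218). It is 1 of 3 smooth septate junction genes listed, which summed to 3.41, 1.58 and 2.27 CPM in NS and 35.95, 3.84 and 2.58 CPM in WT. In that list 2 were higher without NS replicate 3 and 1 without NS replicate 1 or WT replicate 3, and 1 was lower without WT replicate 1 or 2.

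Both collagen IV genes of the basement membrane fell. vkg, a collagen IV gene, stood at 48.95, 29.85 and 27.9 CPM in NS and 88.5, 89.8 and 93.3 CPM in WT (log2 change −1.35 ± 0.20, edgeR adjusted p = 0.000931). Cg25C, the gene of its partner chain, stood at 71.7, 44.3 and 45.1 CPM in NS and 125, 129 and 131 CPM in WT, and its call was lost with the correction for exon length (log2 change −0.67, edgeR adjusted p = 0.0865, against −1.25 as reported). Timp, which encodes the inhibitor of matrix proteases, stood at 2.51, 2.61 and 3.07 CPM in NS and 12.3, 12.9 and 9.12 CPM in WT (log2 change −2.07 ± 0.25, edgeR adjusted p = 0.000316). The protease gene Mmp1 rose, as given above, and Ndg, the nidogen gene, was 5.72-fold the WT mean, while Ppn, the papilin gene, was 2.72-fold lower. Of 22 matrix genes 3 were called higher and 7 lower (median −0.35), with 6 higher, 6 lower and a median of −0.19 without NS replicate 3 and 4 lower without WT replicate 1 or 2, the median being −0.17 without WT replicate 2. With all libraries 13.9% of all genes were higher and 10.7% lower, so the 3 higher matrix genes were near their share. Exons of Timp share 15.7% of their length with Syn, on the opposite strand.

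Among genes of the actin cytoskeleton 3 of 21 rose, near the share of all genes (13.9%), and 1 fell. Act87E, an actin gene, stood at 205, 229 and 260.2 CPM in NS and 20.2, 18.2 and 16.7 CPM in WT (log2 change 3.65 ± 0.19, edgeR adjusted p = 1.46e-06). cher stood at 1914, 2300 and 584 CPM in NS and 360.5, 480.5 and 371 CPM in WT (log2 change 1.99 ± 0.39, edgeR adjusted p = 0.00494). Rho1, the gene of a small GTPase that drives contraction, stood at 755, 677.5 and 835 CPM in NS and 436, 411 and 459 CPM in WT (log2 change 0.80 ± 0.16, edgeR adjusted p = 0.005855). These were the 3 higher genes, and sn, the fascin gene, was lower (edgeR adjusted p = 0.0912 to 0.114 without any one WT library), with 2 lower without NS replicate 3.

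Genes of ribosome assembly rose. Nop56, which encodes a core protein of nucleolar RNA modification, stood at 509.6, 458 and 644 CPM in NS and 314, 312 and 367 CPM in WT (log2 change 0.70 ± 0.14, edgeR adjusted p = 0.006635). Ns1, the nucleostemin gene, stood at 174, 153 and 209 CPM in NS and 103, 96.5 and 128.5 CPM in WT (log2 change 0.71 ± 0.15, edgeR adjusted p = 0.006835). nclb, needed for ribosomal RNA synthesis, stood at 145.5, 136 and 214 CPM in NS and 77.1, 72.5 and 94.25 CPM in WT (log2 change 1.02 ± 0.18, edgeR adjusted p = 0.00238). NS libraries lay above WT libraries in all 3. Of 16 ribosome biogenesis genes 12 were called higher and 0 lower (median 0.68), 13 higher without NS replicate 3 and 2 with NS and WT fitted alone, where 5.18% of all genes were higher and 6.29% lower.

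Ribosomal protein genes were called higher in numbers that moved with single libraries. They are short, and summed to 191270, 212995 and 394162 CPM in NS and 173593, 166843 and 142074 CPM in WT, highest in NS replicate 3. Of 85 genes 43 were higher and 0 lower, with a median of 0.76, or 0.34 without NS replicate 3. Higher calls numbered 80 without NS replicate 1, 65 without NS replicate 2, 34 without NS replicate 3, 5 without WT replicate 1 or 2, 4 without WT replicate 3 and 0 with NS and WT fitted alone. Of 71 mitochondrial ribosomal protein genes 26 were higher and 0 lower, with a median of 0.71, or 0.28 without NS replicate 3. Their higher calls numbered 43 without NS replicate 1 or 2, 9 without NS replicate 3, 2 without WT replicate 1 and 0 without WT replicate 2. With a correction for exon length 31 cytosolic and 23 mitochondrial genes were higher, where 16.2% of all genes were, with medians of 0.30 and 0.23.

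Cell cycle genes gave few calls. Klp61F, the kinesin-5 gene of the spindle, stood at 412, 386 and 373 CPM in NS and 174, 184 and 201 CPM in WT (log2 change 1.07 ± 0.11, edgeR adjusted p = 0.000105), above WT in every NS library. Of 31 cell cycle genes 2 were called higher and 1 lower (median 0.04, ranging from −0.06 to 0.09 with 1 library left out, and −0.11 with library totals), aurB the other higher one (edgeR adjusted p = 0.0708 to 0.118 without any one WT library) and Cdk4 the lower one (edgeR adjusted p = 0.0509 to 0.0719 without NS replicate 1 or 2 or WT replicate 1 or 3). Without NS replicate 3, 2 were lower. Of 15 genes of apoptosis 3 were called higher and 1 lower, rpr among the higher ones with p53, at 25.99, 23.9 and 25.9 CPM in NS and 13.8, 15.7 and 17.5 CPM in WT (log2 change 0.69 ± 0.13, edgeR adjusted p = 0.00441), and 0 were lower without NS replicate 2 or WT replicate 3. The third higher gene was 1 of 2 inhibitors of apoptosis listed, and the lower one was 1 of 6 caspases and adaptors. The call of the inhibitor gene was lost without NS replicate 2 or WT replicate 1 or 3, which left 2 apoptosis genes higher. For all genes the shares were 13.9% higher and 10.7% lower. Exons of p53 overlap a gene of the other strand for 38% of their length.

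Hippo pathway genes gave few calls, with all libraries no larger a share in either direction than all genes (13.9% higher and 10.7% lower). Wbp2, which encodes a partner of Yorkie, stood at 72.75, 70.8 and 64.7 CPM in NS and 42.2, 38.45 and 35.3 CPM in WT (log2 change 0.85 ± 0.17, edgeR adjusted p = 0.00535). jub, the gene of the Ajuba LIM protein, which restrains the kinase Warts, stood at 71.35, 73.1 and 55.95 CPM in NS and 98.9, 110.1 and 95.6 CPM in WT (log2 change −0.60 ± 0.13, edgeR adjusted p = 0.00728). Wbp2 was above and jub below WT in every NS library. Of 19 Hippo genes 2 were called higher and 2 lower, with 1 higher without NS replicate 2 or WT replicate 1 or 3, 4 higher without NS replicate 3 and 1 lower without WT replicate 1.

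Several glycolytic enzyme genes fell while the lactate dehydrogenase gene rose. ImpL3, the lactate dehydrogenase gene, stood at 259.9, 193 and 165 CPM in NS and 22.7, 19.9 and 15.15 CPM in WT (log2 change 3.42 ± 0.44, edgeR adjusted p = 0.0003965). Tpi, the triose phosphate isomerase gene, stood at 67.6, 60.5 and 106 CPM in NS and 219.6, 189 and 202 CPM in WT (log2 change −1.38 ± 0.24, edgeR adjusted p = 0.00235). Pgk, the phosphoglycerate kinase gene, stood at 191, 195.5 and 266 CPM in NS and 397, 382 and 374 CPM in WT (log2 change −0.82 ± 0.17, edgeR adjusted p = 0.006635). Sugar transporter genes moved apart in the same way. Tret1-1, a trehalose transporter gene, stood at 46.9, 38.6 and 25.75 CPM in NS and 6.85, 7.715 and 5.12 CPM in WT (log2 change 2.5 ± 0.36, edgeR adjusted p = 0.0007999). Glut1, a glucose transporter gene, stood at 10.25, 9.555 and 5.76 CPM in NS and 58.4, 63.4 and 58.25 CPM in WT (log2 change −2.82 ± 0.57, edgeR adjusted p = 0.00602). No library overlapped between groups in these 5. Of 17 glycolysis genes 2 were called higher and 7 lower (median −0.56), with 4 lower without WT replicate 1. FASN1, which encodes fatty acid synthase, stood at 1198, 1132 and 437 CPM in NS and 191.5, 170 and 137 CPM in WT (log2 change 2.47 ± 0.43, edgeR adjusted p = 0.002465).

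Detoxification genes changed in both directions. GstD3, a glutathione transferase gene, stood at 21.2, 19.8 and 46.05 CPM in NS and 2.05, 2.33 and 1.47 CPM in WT (log2 change 3.90 ± 0.44, edgeR adjusted p = 0.000184). GstS1, another, stood at 256, 279 and 255 CPM in NS and 745, 762 and 618 CPM in WT (log2 change −1.43 ± 0.12, edgeR adjusted p = 3.64e-05). GstD3 was above and GstS1 below WT in every NS library. Of 30 transferase genes 9 were called higher and 3 lower, with 5 higher without WT replicate 2 and 5 lower without NS replicate 3. With all libraries 13.9% of all genes were higher and 10.7% lower, so the lower count was near its share. Of 20 redox genes, which include several of these, 6 were called higher and 3 lower, Cat, the catalase gene, lower by 1.903-fold, and 3 were higher without any one WT library.

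Toll pathway genes included some that were low in WT and higher in NS. PGRP-SA, which encodes a sensor of bacterial peptidoglycan, stood at 61.3, 75.01 and 108 CPM in NS and 2.28, 4.59 and 1.699 CPM in WT (log2 change 4.84 ± 0.51, edgeR adjusted p = 0.000124). nec, a serpin gene that restrains the pathway, stood at 15.6, 10.6 and 20.02 CPM in NS and 1.67, 1.999 and 1.51 CPM in WT (log2 change 3.16 ± 0.34, edgeR adjusted p = 0.000127). Both were above WT in every NS library. Of 23 Toll and Imd genes 4 were called higher and 2 lower, with 2 higher without NS replicate 2 or any one WT library and 1 lower without any one NS library or any one WT library. These counts were near the shares over all genes, 13.9% higher and 10.7% lower. Other serpin genes rose as Spn100A and Spn43Aa fell, such as Spn47C at 40.4, 41.8 and 49.4 CPM in NS and 6.235, 8.46 and 8.05 CPM in WT (log2 change 2.53 ± 0.25, edgeR adjusted p = 8.52e-05). Of 16 serpin genes 5 were called higher and 3 lower, against the same shares over all genes.

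Myoblasts and tracheal cells lie on the disc, and their markers had more lower than higher calls with all libraries. twi, a mesodermal factor gene of the myoblasts, stood at 15.7, 14.04 and 24.8 CPM in NS and 40.7, 44.5 and 31.6 CPM in WT (log2 change −1.09 ± 0.21, edgeR adjusted p = 0.004095). hbs, a myoblast fusion gene, stood at 9.14, 8.18 and 3.097 CPM in NS and 76.1, 96.2 and 62.9 CPM in WT (log2 change −3.53 ± 0.48, edgeR adjusted p = 0.000605). Mlc2, a myosin light chain gene of muscle, stood at 63.98, 54.5 and 174 CPM in NS and 22.1, 10.9 and 12.4 CPM in WT. twi and hbs lay below WT and Mlc2 above it in every NS library. Mlc2 was the 1 muscle marker of 7 called higher, and their median was 1.02, or −2.05 without NS replicate 3, where 1, Act57B, chosen for mention after its values were seen, was lower. Of 22 myoblast and muscle markers 2 were called higher and 8 lower (median −0.83, or −0.42 with the correction for exon length), with 3 lower without WT replicate 2, and the summed level was 1374, 1352 and 1266 CPM in NS and 1385, 1528 and 1315 CPM in WT. trh, a tracheal factor gene, stood at 24.2, 26.25 and 9.49 CPM in NS and 76.2, 88.9 and 71.02 CPM in WT (log2 change −1.98 ± 0.30, edgeR adjusted p = 0.00124). btl, the FGF receptor gene of tracheae, stood at 3.99, 3.45 and 1.66 CPM in NS and 13.1, 16.1 and 11.6 CPM in WT. Of 10 tracheal markers 2 were called higher and 4 lower, or 1 higher without NS replicate 1 or 2 or any one WT library and 4 without NS replicate 3. Only trh and btl mark tracheal cells. The other 8, genes of tracheal cuticle and lumen, had 2 higher and 2 lower calls, or 4 and 2 without NS replicate 3. These 8 summed to 4746, 5333 and 2013 CPM in NS and 3419, 4291 and 3480 CPM in WT.

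Marker lists of haemocytes, of neurons and glia, and of fat body had 2 calls or fewer each. Among all genes 13.9% were higher and 10.7% lower. Of 14 haemocyte markers 0 were called higher and 2 lower, NimC1 (edgeR adjusted p = 0.0518 to 0.0634 without NS replicate 1 or 2 or WT replicate 3) and PPO3 (edgeR adjusted p = 0.0721 to 0.127 without NS replicate 1 or 2 or any one WT library). Their summed level was 317, 249 and 286 CPM in NS and 274, 274 and 335 CPM in WT, overlapping between groups. Of 12 neuronal and glial markers the one called was moody, a receptor gene of the glial barrier, at 91.6, 84.2 and 43.6 CPM in NS and 16.8, 17.9 and 12.9 CPM in WT (log2 change 2.20 ± 0.31, edgeR adjusted p = 0.000685). Of 12 fat body markers 2 were called higher and 0 lower, FASN1 and the lipase gene bmm (edgeR adjusted p = 0.065 to 0.0673 without NS replicate 1 or WT replicate 2). The median log2 change of the fat body markers was 2.18, with 10 of 12 positive, and 0.35 without NS replicate 1. The part of these cell types in the results was not tested.

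**Figure D5:**
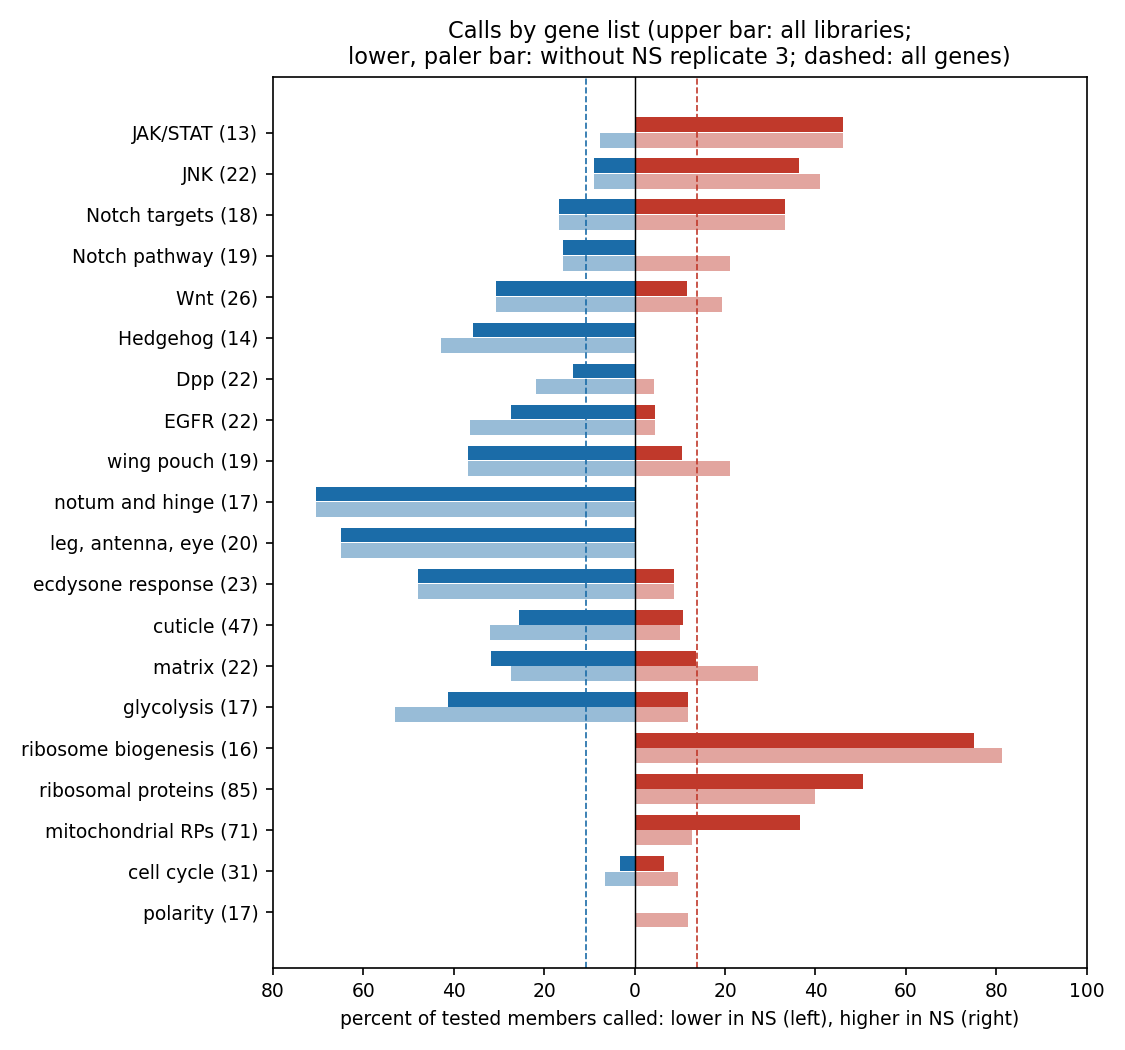
Share of the tested members of 20 gene lists (number tested in parentheses) called lower (left) or higher (right) in NS, with all libraries (upper bar) and without NS replicate 3 (lower, paler bar), with dashed lines at the shares over all genes, 10.7% and 13.9%. Notum and hinge, leg, antenna and eye, and ecdysone response genes extend left in both fits, JAK/STAT, JNK and ribosome biogenesis genes extend right, and both ribosomal protein bars shorten without NS replicate 3.

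Of the 24 genes with the largest changes from WT, 21 also differed in NS from N and 4 from S. In NS against N 4.22% of all genes were higher and 3.66% lower, and each of the 21 kept the direction of its change from WT. In NS against S 1.57% of all genes were higher and 2.27% lower. These comparisons share the NS libraries by which the 24 were chosen. The 4 were Ir87a, yellow-e and CG42808, higher in NS, and ana, lower. Ir87a stood at 11.2, 7.98 and 5.098 CPM in N and 2.92, 3.497 and 2.79 CPM in S. yellow-e stood at 64.5, 44.7 and 37.01 CPM in N and 21.2, 26.9 and 18.9 CPM in S. Every library of both single conditions lay below the NS levels given above. For NS over S the log2 difference was 5.97 ± 0.28, edgeR adjusted p = 9.88e-07 for Ir87a, and 5.39 ± 0.24, edgeR adjusted p = 9.88e-07 for yellow-e. For NS over N it was 4.57 ± 0.26, edgeR adjusted p = 7.36e-06 for Ir87a, and 4.26 ± 0.23, edgeR adjusted p = 4.85e-06 for yellow-e.

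For ImpE2 NS stood apart from N, and for Wnt6 from S. ImpE2 stood at 330.3, 91.6 and 317 CPM in N and 0.888, 1.37 and 1.74 CPM in S. NS lay below N (log2 difference −8.17 ± 0.57, edgeR adjusted p = 4.70e-05) and was not shown to differ from S (log2 difference −0.64 ± 0.48, edgeR adjusted p = 0.578). Wnt6 stood at 209, 156.5 and 213 CPM in N and 29.85, 29.7 and 54.5 CPM in S. NS lay above S (log2 difference 2.56 ± 0.24, edgeR adjusted p = 0.000257) and was not shown to differ from N (log2 difference 0.21 ± 0.23, edgeR adjusted p = 0.536).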

How the data were processed

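The gene counts of 12 libraries were used as the authors deposited them, as whole-number counts per gene in 1 table. Per the submitters' processing notes, TopHat2 2.0.9, Bowtie2 2.1.0, HTSeq, edgeR and DESeq were used with the dm6 genome, with no roles given. Neither the annotation release nor whether counting used strand is given in the sources used here. Libraries were of the stranded TruSeq mRNA type per the labels' protocols.

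Counts were tested with edgeR 4.0.16 (R 4.3.3, limma 3.58.1) by the quasi-likelihood test with TMM scaling and filterByExpr over 4 groups, with 8 residual degrees of freedom. A call is an adjusted p below 0.05, and log2 changes are NS over WT with their SE. Alternatives were DESeq2 1.42.0, other scalings, no filter, left-out libraries, a replicate block and offsets corrected for exon length by lowess (span 0.3). Pairing was checked by the correlation of NS and WT deviations from group means over 9444 genes, which was 0.0983, 0.23 and −0.0187 for replicates 1 to 3, so the numbers were not taken to pair libraries. No 2 libraries were identical. Of 17716 symbols, 17560 were matched to the BDGP6 annotation for positions and lengths. Of the genes named, 47 share exon bases with another gene, and where this exceeds 25% of a gene's exons it is stated beside it, because the reads of such genes may not be separable.

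The comparison and 45 gene lists were chosen with earlier results of these data known, and 3 list entries were not found. Named genes are the 12 highest and 12 lowest as described, a fixed set, and up to 5 called and 3 uncalled members of each list, and others were named after their values were seen. On simulated data for NS against WT (9141 genes) the test recovered 45 of 100 genes given a 2-fold change and 97 of 100 given a 4-fold one, 0 with the wrong sign. It also called 6 unchanged genes. The simulation drew every library from the WT means. It held neither the length bias of NS replicate 3 nor gut or fat body RNA in single libraries, so its rates need not hold here.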

Additional observations from a re-analysis of the deposited data

How the results depend on the processing

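With NS and WT libraries fitted alone 469 genes were higher and 570 lower in NS, and 315 and 396 with a replicate block in that fit. Both fits estimate the spread from fewer libraries than the main fit. So does the fit of NS and WT alone without NS replicate 3, which gave 1213 higher and 1232 lower. Why these counts differ was not tested. The replicate block over all libraries gave 1165 and 948. The numbers were not taken to pair the libraries, by the check given with the methods. That check made no comparison with libraries of unlike number, so it cannot decide whether replicates share a batch. Why calls were lost under the block was not tested. With WT replicate 1 alone as WT the counts were 252 and 413, library totals gave 797 higher, and the exon length correction gave 1573 lower. Leaving out 1 library gave 611 to 1465 higher and 655 to 1183 lower. Alternatives chosen after seeing the data gave 603 and 517 without NS replicates 1 and 3, 842 and 603 without the 3 libraries highest in fat body markers, and 1617 and 1616 without NS replicate 3 and S replicate 3. Distinct list members higher, 167 as reported, numbered 62 with NS and WT alone, 24 with WT replicate 1 alone, 109 without a filter on low counts, 42 with the block in the NS and WT fit, 89 without NS replicates 1 and 3, and 77 to 214 with 1 library left out. Distinct members lower, 149 as reported, numbered 60 with WT replicate 1 alone, 68 with the block in the NS and WT fit, 82 without NS replicates 1 and 3, 224 without NS replicate 3 and S replicate 3 and 99 without those 3 libraries, and 102 to 167 with 1 library left out. Of the 24 extreme genes 7 differed from S by DESeq2. The log2 change of scrib turned to 0.09 without NS replicate 3 and likewise with NS and WT alone, 0.10 with the length correction, 0.18 without NS replicates 1 and 3 and 0.08 without NS replicate 3 and S replicate 3, never called, and ranged from −0.69 to 0.09 with 1 library left out. That of N, 0.39 to 1.03 with 1 library left out, was called at 1.03 without NS replicate 3, 1.04 likewise with NS and WT alone, 1.17 with the length correction and 1.02 without NS replicate 3 and S replicate 3. dlg1, not called, turned to 0.09 with the length correction. Of the called genes named, Imp, aurB, spi and vg were not called with library totals (adjusted p = 0.0568 to 0.117), nor vg with RLE size factors. The causes were not tested. DESeq2 (1629 and 1398), RLE size factors (1203 and 1068) and no filter (972 and 801) kept both counts within 1.5 times. Depth limits genes near 1 CPM.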

Other observations

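The yellow family, looked at after the values were seen, rose beyond yellow-e. Its members encode secreted proteins, some of which act in pigmentation. yellow-b stood at 109, 92.4 and 117 CPM in NS and 32.8, 31.2 and 27.4 CPM in WT (log2 change 1.80 ± 0.18, edgeR adjusted p = 8.67e-05). yellow-e3, which lies next to yellow-e, stood at 51.2, 50.6 and 61.1 CPM in NS and 22.4, 24.2 and 20.9 CPM in WT (log2 change 1.27 ± 0.11, edgeR adjusted p = 4.93e-05). yellow-c and yellow-h were 3.32-fold and 5.52-fold the WT mean. NS libraries lay above WT libraries in all 4, and 5 of 9 tested members were called higher and 0 lower, the same counts without NS replicate 3 or WT replicate 1. Their summed level was 1211, 1170 and 1236 CPM in NS and 129, 131 and 124 CPM in WT, most of it yellow-e in NS. Exons of yellow-c share 74.8% of their length with a gene of the other strand.

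Chemoreceptor genes, which sensory neurons are known to use, had calls in both directions, those other than Ir87a, given above, at low levels. Ir76a, an ionotropic receptor gene, stood at 0.581, 0.591 and 0.774 CPM in NS and 7.47, 7.82 and 9.01 CPM in WT (log2 change −3.63 ± 0.33, edgeR adjusted p = 4.93e-05). Gr64f, a sugar receptor gene of the same cluster as Gr64a, gave 2 reads in all NS libraries together, against 2.67, 2.64 and 2.82 CPM in WT. Ir85a stood at 0.106, 0.04925 and 0.115 CPM in NS and 1.899, 1.49 and 1.37 CPM in WT. Of 32 receptor genes tested 3 were called higher and 6 lower, and 1 was higher without WT replicate 1 or 2. For all genes the shares were 13.9% higher and 10.7% lower.

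Germline genes, at low levels, had calls in both directions. vas, a helicase gene of germ cells, stood at 1.82, 2.61 and 3.298 CPM in NS and 0.7698, 0.5895 and 0.605 CPM in WT (log2 change 1.97 ± 0.34, edgeR adjusted p = 0.00236). nos, a translation repressor gene of germ cells, stood at 0.845, 1.03 and 0.717 CPM in NS and 0.205, 0.128 and 0.116 CPM in WT (log2 change 2.5 ± 0.44, edgeR adjusted p = 0.00258). krimp, a piRNA pathway gene, was 2.28-fold the WT mean and AGO3, another, 1.63-fold lower. Of 15 such genes 3 were called higher and 1 lower, and 2 were lower without any one NS library. The shares over all genes were 13.9% higher and 10.7% lower.

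CadN2, a cadherin gene, stood at 3.83, 1.72 and 3.56 CPM in NS and 0.539, 0.4101 and 0.256 CPM in WT (log2 change 2.91 ± 0.40, edgeR adjusted p = 0.0006345). Fas3, which encodes an adhesion protein of septate junctions, stood at 545, 553 and 317 CPM in NS and 866, 884 and 832 CPM in WT (log2 change −0.87 ± 0.20, edgeR adjusted p = 0.01075, and 0.0876 with the correction for exon length). Of 13 adhesion and mesenchymal genes 2 were called higher and 4 lower, with 1 higher without NS replicate 1 or 2 or WT replicate 1 or 2, 5 higher without NS replicate 3 and 2 lower without WT replicate 2. dsx, the Doublesex gene of sex determination, stood at 25.8, 29.5 and 9.52 CPM in NS and 68.8, 80.25 and 72.1 CPM in WT (log2 change −1.77 ± 0.34, edgeR adjusted p = 0.00457). Of 12 genes of sex determination and dosage compensation 1 was called higher and 1 lower, with 0 higher without NS replicate 1 or 2 or any one WT library and 2 lower without NS replicate 1. Of 18 Hox, Polycomb and Trithorax genes 0 were called higher and 1 lower (0 without any one WT library and 2 without NS replicate 3), and of 32 proteasome genes 2 were called higher and 0 lower (0 higher without NS replicate 3 or WT replicate 1 or 2 and 1 without WT replicate 3).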
